A study of Mus musculus with 8 samples.

Results

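The genes described here are 10 genes of fibroblast growth factor (FGF) signalling and of its feedback on the kinase ERK, measured in mouse induced pluripotent stem (iPS) cells and embryonic stem (ES) cells. They were taken by gene symbol and comprise the ligand gene Fgf4, the receptor genes Fgfr1 and Fgfr2, the feedback inhibitor genes Spry2, Spry4, Spred1, Dusp6 and Dusp4, and the transcription factor genes Etv4 and Etv5. The platform annotation gave one of these symbols to 31 of the 45101 probe sets on the array, and all 10 genes had at least 1 probe set among the 14004 genes that could be tested.

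The series held 8 Affymetrix arrays, with 2 arrays for each of 4 lines. The groups were iPS line 1, iPS line 2 and iPS line 3, each described as an integration-free iPS cell line, and the ES control, a normal ES cell line. All 4 lines were male and of the C57BL/6 strain, were taken between passage 7 and passage 10, and grew in N2B27 medium with mouse LIF, the cytokine that holds mouse ES cells in self-renewal. The ES control was 1 line, each iPS group was also 1 line, and the labels used here do not give the somatic cell of origin, the reprogramming factors or the vector. The titles name the 2 arrays of a line biological replicates without saying whether they came from separate cultures, so the p-values measure the spread between arrays, which may be technical.

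FGF4 is secreted by pluripotent cells and binds FGF receptors together with heparan sulphate on the cell surface. The activated receptor signals through adaptors, Ras, Raf and MEK to the kinase ERK, and in mouse ES cells this pathway is known for opening the way to differentiation, while its inhibition holds the cells in the naive state. ERK activity in turn switches on Sprouty, Spred and Dusp genes, whose products dampen the pathway at different steps, and the ETS-family genes Etv4 and Etv5, so the RNA levels of these genes are widely used as a readout of FGF-ERK activity. No phosphorylated protein was measured here.

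The arrays were on a common scale, with a trimmed mean signal of 500.004 in each. The share of probe sets above a low-signal floor of 37.1 ranged from 58.1% to 61.4% over the arrays. Of 12 pluripotency markers, 11 were above that floor in both arrays of every line, and their summed signal ranged from 114826 to 130211 over the 8 arrays. Of 13 fibroblast markers, between 3 and 5 were above the floor in both arrays of a line. The summed signal of the 13 was 5943 to 9544 over the arrays. Col1a1, Dcn, Postn and Fap were at or under the floor in every line, and each of the others was above it in some array. The ratio of 3' to 5' signal of beta-actin, a gauge of RNA quality, reached 1.74 and 1.79 in iPS line 2, against 1.49 to 1.62 elsewhere. The Gapdh ratio was 0.915 and 0.946 in iPS line 2, above 0.856 and 0.888 in the ES control, while it reached 0.935 in iPS line 3. The median signal was 62.3 and 64.3 in iPS line 2, against 54.1 to 59.9 elsewhere. Over all genes, 26.7% differed between iPS line 2 and the ES control, compared with 2.34% in iPS line 1 and 4.17% in iPS line 3. The signals of each member are therefore given line by line. The lists of other pathway genes and of markers are described mainly for iPS line 2.

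Promoter windows are shown for 3 genes whose signal was lower in iPS line 2 and for Fgf4, which did not pass the test in any comparison, because ETV4 and ETV5 belong to the ETS family, whose proteins bind a GGAA core. The windows cover 250 bases before to 50 bases after a RefSeq gene start on GRCm38.p6, and 6 of the 10 members had a usable window. Capitals mark GGAA read on the printed strand and TTCC, the same core on the other strand. The Dusp6 window lies at chr10:99262981-99263280 on the plus strand, the Spred1 window at chr2:117120821-117121120 on the plus strand, the Etv5 windows at chr16:22438319-22438618 and chr16:22439521-22439820 on the minus strand, and the Fgf4 window at chr7:144861136-144861435 on the plus strand.
Dusp6: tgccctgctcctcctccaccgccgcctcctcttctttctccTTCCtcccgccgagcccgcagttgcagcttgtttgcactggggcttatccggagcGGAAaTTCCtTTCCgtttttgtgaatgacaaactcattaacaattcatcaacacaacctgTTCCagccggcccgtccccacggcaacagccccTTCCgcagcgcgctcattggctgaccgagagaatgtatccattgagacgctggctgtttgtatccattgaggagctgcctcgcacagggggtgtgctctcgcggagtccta
Spred1: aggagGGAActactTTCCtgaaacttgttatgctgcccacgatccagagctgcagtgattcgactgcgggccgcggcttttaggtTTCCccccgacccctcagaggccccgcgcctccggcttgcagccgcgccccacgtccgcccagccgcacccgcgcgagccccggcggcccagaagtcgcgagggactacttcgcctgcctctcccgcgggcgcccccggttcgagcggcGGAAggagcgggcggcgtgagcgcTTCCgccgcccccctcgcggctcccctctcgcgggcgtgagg
Etv5, first window: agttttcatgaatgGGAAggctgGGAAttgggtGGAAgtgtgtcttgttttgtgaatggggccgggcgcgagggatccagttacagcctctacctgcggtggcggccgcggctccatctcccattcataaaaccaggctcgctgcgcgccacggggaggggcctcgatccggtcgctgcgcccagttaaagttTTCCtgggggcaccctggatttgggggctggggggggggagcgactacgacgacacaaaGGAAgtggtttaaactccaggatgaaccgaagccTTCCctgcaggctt
Etv5, second window: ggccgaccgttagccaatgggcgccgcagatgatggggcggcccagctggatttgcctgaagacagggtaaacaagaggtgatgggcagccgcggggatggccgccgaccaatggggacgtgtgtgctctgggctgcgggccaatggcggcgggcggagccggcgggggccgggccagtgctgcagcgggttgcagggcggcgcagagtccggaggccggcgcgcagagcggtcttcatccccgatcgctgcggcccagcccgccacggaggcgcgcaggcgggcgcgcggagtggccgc
Fgf4: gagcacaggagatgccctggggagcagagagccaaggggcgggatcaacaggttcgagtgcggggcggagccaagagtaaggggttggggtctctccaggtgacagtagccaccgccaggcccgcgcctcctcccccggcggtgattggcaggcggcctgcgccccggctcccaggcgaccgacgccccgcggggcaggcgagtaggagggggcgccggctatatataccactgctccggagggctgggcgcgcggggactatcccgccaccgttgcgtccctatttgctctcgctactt
The core matched 6 times in the Dusp6 window, 5 times in the Spred1 window and 6 times in the first Etv5 window, against 0 times in the second Etv5 window and in the Fgf4 window. The windows of Spry2 and Fgfr2, which are not printed, held 5 and 4 matches. A GGAA core on either strand stood in 96.0% of all 32851 windows of this length, so its presence is common to almost all promoters. The longer GGAAGT, which contains the core, matched 2 times in the first Etv5 window and in none of the other 6 member windows, against 23.8% of all windows with at least 1 match. A match describes these letters only, no binding was measured, and the windows were picked after the signals had been seen.

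In iPS line 2, the 2 ETS factor genes, Dusp6, Spred1 and Spry4 were all lower than in the ES control, Fgfr1 was higher, and Fgf4, Fgfr2, Spry2 and Dusp4 did not pass the test. Thus 6 of the 10 members were called, 1 higher and 5 lower, at an adjusted p under 0.05 in limma, while over all 14004 genes 26.7% were called, 16.1% higher and 10.6% lower. The median log2 change of the 10 members was -0.44, beside 0.07 over all genes. In a culture measured as a whole, fewer cells expressing a gene and less RNA per cell cannot be told apart. All changes below are log2 differences of signal plus a pseudocount of 12.4, with limma's standard error (SE).

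Etv4 encodes an ETS transcription factor of the PEA3 group and had the widest range over the 4 lines of all members. Its signal, from probe set 1423232_at, was 535.3 and 380.9 in iPS line 1, 159.3 and 156.9 in iPS line 2, and 635.5 and 608.6 in iPS line 3, against 576.2 and 605.4 in the ES control. Both arrays of iPS line 2 lay far below the other 6 arrays, and those of iPS line 3 were both above the ES control. On the dimmer probe set 1443381_at both arrays of iPS line 3, at 124.6 and 92.1, lay below both ES arrays, at 128.8 and 147.8. In iPS line 2 Etv4 fell by 1.82 ± 0.15 on the log2 scale against the ES control, which is 3.54-fold lower (95% confidence interval -2.14 to -1.50, adjusted p 2.88e-06, limma). Only 15 of the 14004 genes, or 0.107%, had a lower change in that comparison. In iPS line 1 the change was -0.38 ± 0.15 (adjusted p 0.261, limma), with both arrays below the ES control, and in iPS line 3 it was 0.07 ± 0.15 (adjusted p 0.848, limma).

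Etv5 encodes a closely related ETS factor that is highly expressed in mouse ES cells. Its signal, from probe set 1428142_at, was 6024 and 7467 in iPS line 1, 4436 and 4595 in iPS line 2, and 6822 and 8764 in iPS line 3, against 8182 and 6389 in the ES control. The arrays of iPS line 2 were again the lowest 2 of the 8, while iPS lines 1 and 3 overlapped with the ES control. Etv5 fell in iPS line 2 by 0.68 ± 0.13 against the ES control, or 1.60-fold (95% confidence interval -0.96 to -0.39, adjusted p 0.00208, limma), and without a variance trend this call was lost. In iPS line 1 the change was -0.11 ± 0.13 and in iPS line 3 it was 0.10 ± 0.13, with adjusted p of 0.785 and 0.767 (limma).

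Dusp6 encodes a cytoplasmic phosphatase that dephosphorylates ERK. Its signal, from probe set 1415834_at, was 2094 and 2040.1 in iPS line 1, 1377 and 1479 in iPS line 2, and 2002 and 2047 in iPS line 3, against 2387 and 2259 in the ES control. All 6 iPS arrays were below both ES arrays, and those of iPS line 2 were the lowest. Dusp6 fell by 0.70 ± 0.07 in iPS line 2 against the ES control, or 1.62-fold (95% confidence interval -0.85 to -0.54, adjusted p 2.03e-05, limma). The changes of -0.17 ± 0.07 in iPS line 1 and -0.20 ± 0.07 in iPS line 3 had unadjusted p of 0.0383 and 0.0177 and did not pass after adjustment over all genes (0.320 and 0.167, limma). Dusp4 encodes a nuclear phosphatase of the same family and was dim. Its signal, from probe set 1428834_at, was 107.4 and 74.6 in iPS line 1, 96.4 and 54.9 in iPS line 2, and 71.1 and 63.7 in iPS line 3, against 80.0 and 111.2 in the ES control. Both arrays of iPS line 3 lay below both arrays of iPS line 1 and of the ES control, and the other pairs of lines overlapped. In iPS line 2 the change of -0.32 had a 95% confidence interval of -1.01 to 0.37.

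**Figure D1:**
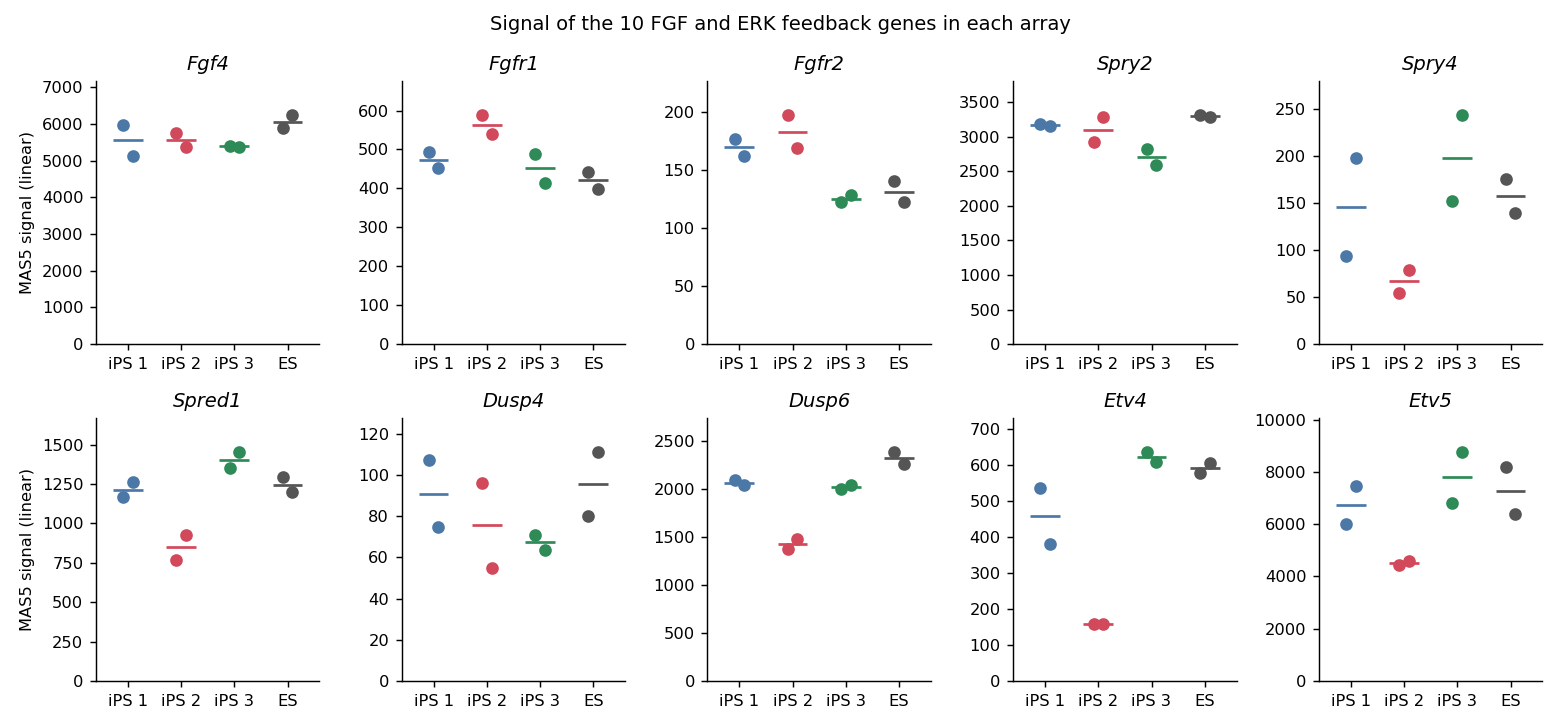
Signal of the chosen probe set of each of the 10 members in each array (vertical axis, MAS5 signal on a linear scale). The lines are iPS line 1, iPS line 2, iPS line 3 and the ES control (horizontal axis, 2 arrays each). Etv4, Etv5, Dusp6, Spred1 and Spry4 have their lowest arrays in iPS line 2, where Etv4 was at 159.3 and 156.9.

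Spred1 encodes a Sprouty-related protein that holds back the activation of Raf by Ras. Its signal, from probe set 1423160_at, was 1165 and 1264 in iPS line 1, 768.7 and 928.6 in iPS line 2, and 1349 and 1453 in iPS line 3, against 1294 and 1197 in the ES control. The arrays of iPS line 2 were the lowest and those of iPS line 3 the highest of the 8. Spred1 fell in iPS line 2 by 0.55 ± 0.10 against the ES control, or 1.47-fold (95% confidence interval -0.77 to -0.33, adjusted p 0.00144, limma). The mean over all its probe sets gave -0.30 with an adjusted p of 0.29 (limma).

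The Sprouty genes Spry2 and Spry4 encode membrane-associated proteins that inhibit receptor tyrosine kinase signalling. Spry2 (probe set 1436584_at) had signals of 3189 and 3150 in iPS line 1, 2919 and 3282 in iPS line 2, and 2824 and 2593 in iPS line 3, against 3307 and 3277 in the ES control. Both arrays of iPS line 3 were below all other arrays, and iPS line 2 overlapped with the ES control. Spry2 changed by -0.28 ± 0.07 in iPS line 3 (95% confidence interval -0.44 to -0.12, adjusted p 0.0519, limma), just missing the threshold, and it passed without replicate 1 or without replicate 2 of iPS line 2. The change was -0.09 in iPS line 2 (95% confidence interval -0.25 to 0.07). Spry4 (probe set 1445669_at) had signals of 93.5 and 197.8 in iPS line 1, 54.7 and 78.8 in iPS line 2, and 152.1 and 243.2 in iPS line 3, against 176.0 and 139.7 in the ES control. The arrays of iPS line 2 were the lowest 2, although the arrays within iPS lines 1 and 3 were far apart. Spry4 fell in iPS line 2 by 1.11 ± 0.32 against the ES control (95% confidence interval -1.82 to -0.41, adjusted p 0.0224, limma), a call lost under 5 of the 19 other settings tried. The call was lost, among others, when ES replicate 1 (-0.96), ES replicate 2 (-1.27) or replicate 1 of iPS line 2 (-0.89) was left out, with adjusted p of 0.137, 0.0506 and 0.139 (limma).

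Fgf4, the ligand gene (probe set 1420085_at), had signals of 5978 and 5137 in iPS line 1, 5764 and 5380.2 in iPS line 2, and 5405 and 5382 in iPS line 3, against 5897 and 6233 in the ES control. Its lines lay closest together of all members, with a range of 0.17 between the highest and lowest line mean on the log2 scale. Both arrays of iPS lines 2 and 3 were below both ES arrays, and the change in iPS line 2 was -0.12 (95% confidence interval -0.28 to 0.04, adjusted p 0.263, limma). A fall of more than 0.28 in that line therefore lies outside the interval.

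The receptor genes Fgfr1 and Fgfr2 encode receptor tyrosine kinases that bind FGFs, and FGFR1 is the main receptor for FGF4 in mouse ES cells. Fgfr1 (probe set 1424050_s_at) had signals of 492.4 and 453.4 in iPS line 1, 587.5 and 539.3 in iPS line 2, and 488.9 and 414.4 in iPS line 3, against 442.5 and 398.8 in the ES control. The arrays of iPS line 2 were the highest 2 and those of iPS line 3 overlapped with the ES control. Fgfr1 in iPS line 2 was 1.33-fold higher than in the ES control, a log2 change of 0.41 ± 0.12 (95% confidence interval 0.15 to 0.68, adjusted p 0.0245, limma), and this call was lost under 7 of the 19 other settings. These included quantile normalization (0.30, adjusted p 0.0925, limma), median centring (0.32, adjusted p 0.106), leaving out ES replicate 2 (0.34, adjusted p 0.152) and leaving out replicate 1 of iPS line 2 (0.35, adjusted p 0.132). Its chosen probe set has the suffix _s_at, and the next brightest without such a suffix gave 0.20. Fgfr2 (probe set 1433489_s_at) had signals of 177.1 and 162.4 in iPS line 1, 197.2 and 168.9 in iPS line 2, and 122.2 and 128.9 in iPS line 3, against 140.3 and 122.6 in the ES control. Both arrays of iPS lines 1 and 2 lay above both ES arrays. The change in iPS line 2 was 0.44 ± 0.19 (95% confidence interval 0.03 to 0.85, adjusted p 0.108, limma), which did not pass.

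**Figure D2:**
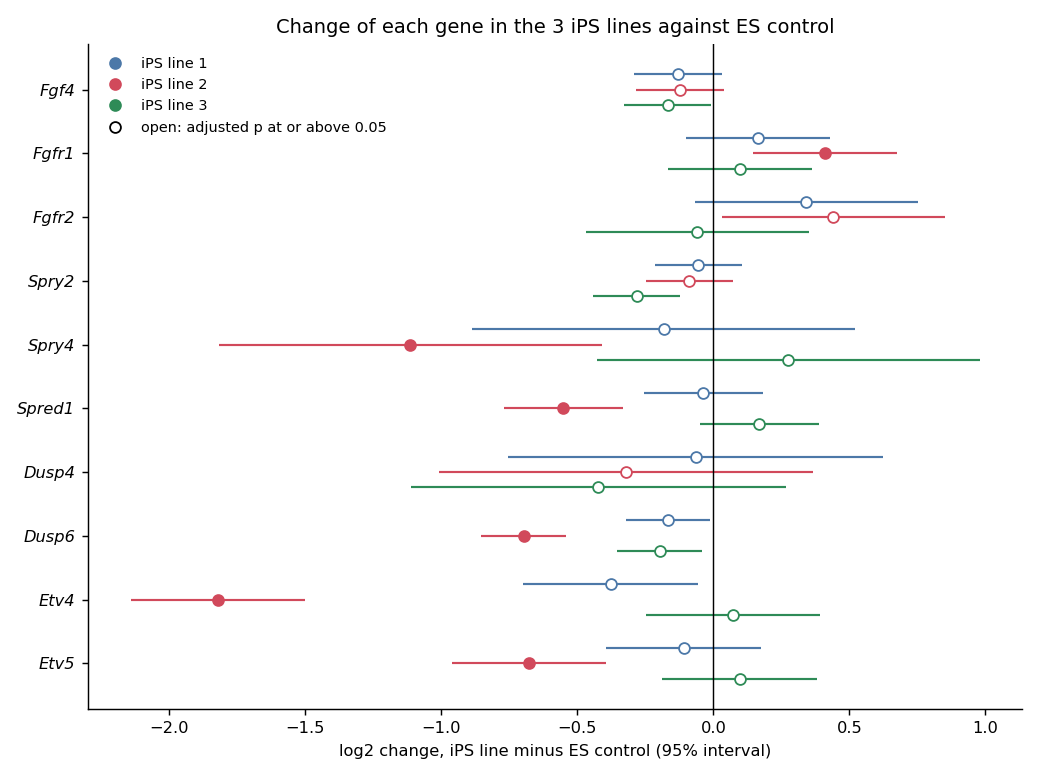
Log2 change of each of the 10 members in iPS line 1, iPS line 2 and iPS line 3 against the ES control (points, bars give the 95% confidence interval, 2 arrays per line). In iPS line 2 the values run from -1.82 for Etv4 to 0.44 for Fgfr2, while in iPS lines 1 and 3 all members lie between -0.42 and 0.34.

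In iPS line 1 and in iPS line 3, 0 of the 10 members passed the test against the ES control (limma), where 2.34% and 4.17% of all genes did. At an unadjusted p under 0.05 there were 2 members in iPS line 1, Dusp6 and Etv4, and 3 in iPS line 3, Spry2, Dusp6 and Fgf4, each of them below the ES control. Over all genes, 14.0% in iPS line 1 and 17.6% in iPS line 3 were under that threshold. The widest confidence intervals were those of the dim genes Spry4 and Dusp4, which in iPS line 1 ran from -0.89 to 0.52 and from -0.75 to 0.62. The comparisons of the 3 lines share the ES arrays.

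The mean of the 3 iPS lines was lower than the ES control for Dusp6 and Etv4, 2 of the 10 members, where 3.03% of all genes were lower and 7.3% were called. The p-values here measure the spread between arrays of a line and not that between lines, and the ES control is 1 line. Dusp6 changed by -0.35 ± 0.06 (adjusted p 0.00288, limma) and Etv4 by -0.71 ± 0.12 (adjusted p 0.00337, limma). Without iPS line 2 the values were -0.18 for Dusp6 (adjusted p 0.129, limma) and -0.15 for Etv4 (adjusted p 0.582, limma), so both calls rest on that line. Line by line, Etv4 was at -0.38, -1.82 and 0.07 in iPS lines 1, 2 and 3. Leaving out an ES array also ended a call, with an adjusted p of 0.0818 for Dusp6 without ES replicate 1 and of 0.059 for Etv4 without ES replicate 2 (limma).

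The iPS lines were also compared with each other, although both comparisons with iPS line 2 share its arrays. The differences of means leave out the ES arrays, but the standard errors and p-values use the spread within all 4 lines. Against iPS line 1, iPS line 2 was lower in 4 of the 10 members, where 9.53% of all genes were lower and 23.3% were called in either direction. Etv4 differed by -1.44 ± 0.15, Etv5 by -0.57 ± 0.13, Dusp6 by -0.53 ± 0.07 and Spred1 by -0.52 ± 0.10, with adjusted p between 3.28e-05 and 0.0075 (limma). The call of Etv5 was lost without replicate 2 of iPS line 1 (-0.41) and with no variance trend, and that of Spred1 with the mean over its probe sets (-0.39, adjusted p 0.174, limma). Spry4 had a change of -0.93 ± 0.32 and an adjusted p of 0.0558 (limma). Against iPS line 3, iPS line 2 was lower in 5 of the 10 members, where 12.1% of all genes were lower and 31.1% were called. These were Etv4 (-1.90 ± 0.15), Spry4 (-1.39 ± 0.32), Etv5 (-0.77 ± 0.13), Spred1 (-0.72 ± 0.10) and Dusp6 (-0.50 ± 0.07), with adjusted p between 1.73e-06 and 0.00558 (limma). The call of Spry4 was lost without replicate 2 of iPS line 3 (-1.07), with no variance trend and with the mean over its probe sets (-0.79), and that of Spred1 with the mean over its probe sets (-0.30, adjusted p 0.265, limma). Between iPS line 1 and iPS line 3, 0 of the 10 members passed (limma), where 1.41% of all genes did, and 2 members, Spry2 and Etv4, had an unadjusted p under 0.05, as did 14.0% of all genes. In that comparison Etv4 was -0.45 ± 0.15 in iPS line 1 relative to iPS line 3 (adjusted p 0.180, limma).

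A gene can have several probe sets, which read different stretches of its transcripts. Of the 31 probe sets of the members, 28 passed the low-signal filter, and 1 each of Fgfr2, Spry4 and Spred1 did not. In a fit of all 25733 passing probe sets, 9 of the 28 were lower in iPS line 2 than in the ES control and 1 was higher, where 8.86% of all probe sets were lower, 12.4% higher and 21.3% called in either direction. All 3 Etv5 probe sets were lower, from -0.52 to -0.74, as were both Etv4 probe sets at -1.82 and -0.98 and the single Dusp6 probe set. Of the 7 Spred1 probe sets, the 2 brightest were lower and the other 5 did not pass, with changes from -0.56 to 0.11. All 3 Spry4 probe sets had changes below 0 but 1 passed, and all 3 Fgfr1 probe sets had changes above 0, from 0.20 to 0.63, and again 1 passed. None of the 4 Fgf4 probe sets passed, with changes from -0.15 to 0.24, and the 2 Fgfr2 probe sets pointed in opposite directions at 0.44 and -0.14.

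**Figure D3:**
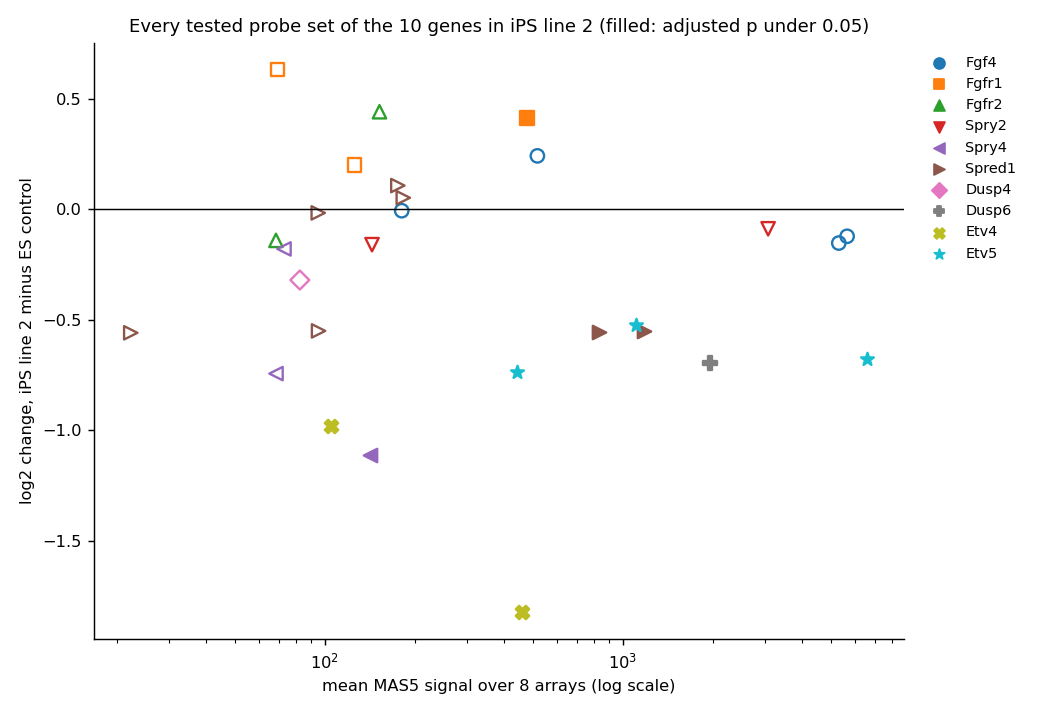
Log2 change in iPS line 2 against the ES control for each of the 28 member probe sets that passed the filter. All probe sets of Etv4, Etv5 and Dusp6 lie below 0, while those of Spred1 spread from -0.56 to 0.11.

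The genes whose level over the 4 lines was most like that of Etv4 were found by the Euclidean distance between centred log2 line means. They were Bmp4 at a distance of 0.18, Slc6a15 at 0.24, 1700057G04Rik at 0.26 and Slc39a14 at 0.29. Bmp4, which encodes a bone morphogenetic protein, had log2 changes of -0.55 in iPS line 1, -2.06 in iPS line 2 and -0.11 in iPS line 3 against the ES control. This likeness rests on 4 line means.

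Other genes of the FGF-ERK pathway were taken from 6 lists with 118 genes in all, of which 97 were tested. In iPS line 2, 26 were higher and 12 lower than in the ES control. Thus 39.2% were called against 26.7% of all genes (16.1% higher and 10.6% lower), with a median change of 0.20 beside 0.07. In iPS line 1 there were 5 higher and 3 lower, or 8.25% called against 2.34% of all genes. In iPS line 3 there were 4 higher and 7 lower, or 11.3% against 4.17%. For the mean of the lines there were 9 higher and 6 lower, or 15.5% against 7.3%. The members had 1 higher and 5 lower in iPS line 2, and the difference between these counts was not tested. Members and lists were chosen with earlier results of these data known, so these shares only describe the lists and are no test of enrichment.

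Among 19 tested ligand and ligand-binding genes, 0% were called in iPS line 1 and in iPS line 3. In iPS line 2, 3 were higher and 1 lower (21.1% called, against 26.7% of all genes). Fgf13 and Fgf11, intracellular members of the FGF family that are not secreted, were at 0.76 ± 0.16 and 1.02, and Flrt3, a membrane protein that binds FGF receptors, was at 0.53. Fgf17, a secreted ligand, fell by 0.89 ± 0.23. Fgf11, Fgf17 and Flrt3 passed with adjusted p of 0.0283, 0.0125 and 0.0413 (limma), and the call of Flrt3 was lost under 11 of the 19 other settings. With the mean over its probe sets Fgf13 was at 0.34 and lost its call (adjusted p 0.474, limma). Leaving out any 1 array of iPS line 2 or of the ES control ended the call of Fgf11 (0.95 to 1.08). Leaving out ES replicate 2 or replicate 1 of iPS line 2 ended that of Fgf17 (-0.79 and -0.75). Flrt3 lost its call without either ES array, either array of iPS line 1 or replicate 2 of iPS line 2 (0.31 to 0.55). Of the 3 other receptor genes, Fgfr3 was higher in iPS line 2, with signals of 333.9 and 241.4, against 173.9 and 96.4 in the ES control. Its change was 1.06 ± 0.30 (adjusted p 0.0199, limma), and 5 of the 19 other settings ended the call, among them leaving out ES replicate 2 (0.67) or replicate 1 of iPS line 2 (0.83). Fgfr4 at 0.29 and the decoy receptor gene Fgfrl1 at 0.34 did not pass.

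Heparan sulphate is the co-receptor that FGFs need, and 18 genes for its core proteins and modifying enzymes were tested. Of these, 16.7% were called in iPS line 1 and 22.2% in iPS line 3, against 2.34% and 4.17% of all genes. In iPS line 2, 5 were higher and 6 lower (61.1% called, against 26.7% of all genes). Gpc4, a cell-surface glypican core protein, had signals of 1222 and 1078 in iPS line 1, 734.4 and 762.7 in iPS line 2, and 1507 and 1365 in iPS line 3, against 2398 and 2151 in the ES control. All 6 iPS arrays were below both ES arrays, and Gpc4 fell in each line, by 0.98, 1.59 and 0.66 on the log2 scale. Hs6st2, a sulphotransferase that acts on the 6-O position, had signals of 228.6 and 193.6 in iPS line 1, 171.6 and 170.6 in iPS line 2, and 225.0 and 295.0 in iPS line 3, against 65.2 and 72.9 in the ES control. It was higher in each line, with changes of 1.45, 1.17 and 1.73. Hs6st1, a second 6-O sulphotransferase, was higher in iPS line 2 at 0.67, and Sdc1, a syndecan core protein, was lower at -0.60. The Sdc1 call was lost with the mean over its probe sets (-0.25, adjusted p 0.185, limma), and with _x_at and _s_at probe sets dropped its change was -0.0033 (adjusted p 0.991, limma). The comparisons of the 3 lines share the ES arrays, so a deviation there would enter all 3.

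Of 17 tested adaptor and Ras-ERK cascade genes, 5.88% were called in iPS line 1 and again in iPS line 3. In iPS line 2, 6 were higher and 2 lower (47.1% called, against 26.7% of all genes). Plcg1, the phospholipase that FGF receptors recruit, was at 0.84, and it was also higher in iPS line 1 at 0.44 and iPS line 3 at 0.38. The MEK gene Map2k1 was at 0.57, the Raf-family kinase gene Braf at 0.71 and the Ras exchange factor gene Sos2 at 1.06. The mean over its probe sets put Braf at 0.42 (adjusted p 0.0577, limma), which ended its call. The 2 lower genes were Nras at -0.21, a Ras gene, and Gab1 at -0.15, an adaptor, both named after their values were seen. Of 18 further inhibitor genes, 0% were called in iPS line 1 and 5.56% in iPS line 3. In iPS line 2, 4 were called, all of them higher. This is 22.2%, where 26.7% of all genes were called and 16.1% were higher. They were the nuclear phosphatase gene Dusp1 at 0.66, the Raf inhibitor gene Pebp1 at 0.29, Lrig1, a membrane protein that lowers the level of receptor tyrosine kinases, at 0.57, and the ERK phosphatase gene Dusp7 at 0.62. Pebp1 lost its call with median centring (0.20, adjusted p 0.109, limma) and with no variance trend. The call of Lrig1 was lost under 5 of the 19 other settings, with a lowest change of 0.36. Among them were leaving out ES replicate 1 (0.48) or replicate 1 of iPS line 2 (0.38). The call of Dusp7 was lost under 7 of the 19 other settings, with a lowest change of 0.17. Among them were leaving out ES replicate 1 (0.68), ES replicate 2 (0.56) or replicate 2 of iPS line 2 (0.48).

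Of 22 tested ERK-responsive transcription factor and target genes, 18.2% were called in iPS line 1 and 22.7% in iPS line 3, against 2.34% and 4.17% of all genes. In iPS line 2, 7 were higher and 3 lower (45.5% called, against 26.7% of all genes). Jun, an AP-1 subunit, had signals of 811.4 and 797.4 in iPS line 1, 2537 and 2514 in iPS line 2, and 486.1 and 493.7 in iPS line 3, against 590.4 and 559.4 in the ES control. The arrays of iPS line 2 were far above all others. Its change in iPS line 2 was 2.11, beside 2.33 for the repressor gene Bhlhe40, 1.60 for the zinc-finger gene Egr1 and 1.09 for Fos, the partner of Jun. Egr1 was higher in all 3 lines, with 0.43 in iPS line 1 and 0.68 in iPS line 3, while Bhlhe40 was higher in iPS line 1 at 0.91 and lower in iPS line 3 at -0.48. The 3 lower genes in iPS line 2, named after their values were seen, were Myc at -1.30, the cyclin gene Ccnd1 at -0.55 and Ier2 at -0.38.

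**Figure D4:**
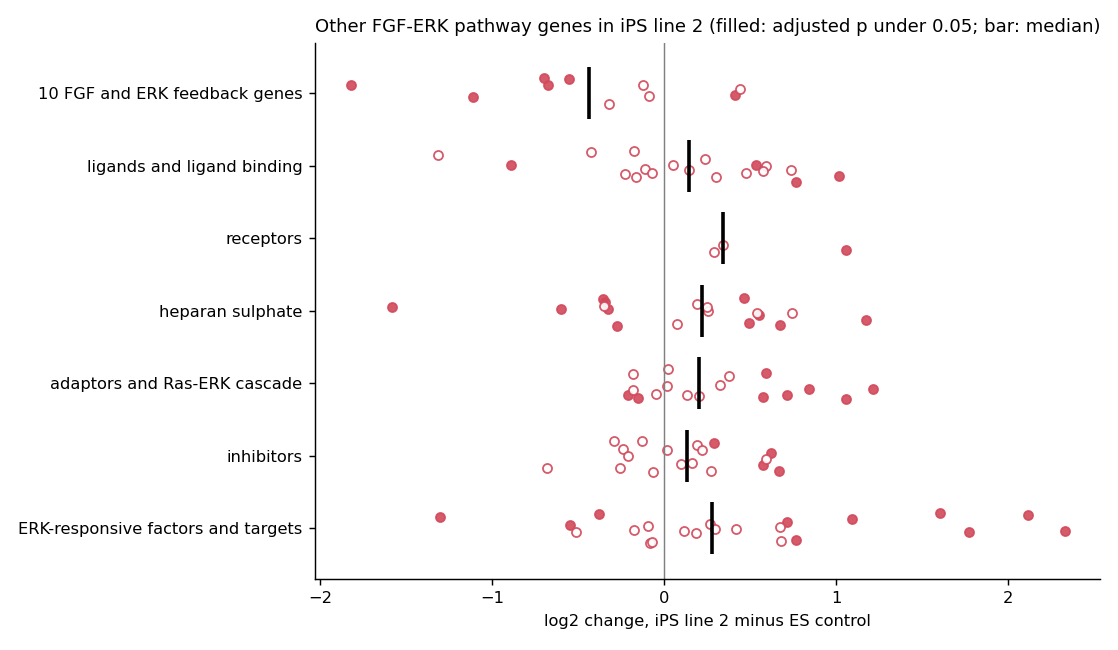
Log2 change in iPS line 2 against the ES control for each tested gene of the 10 members and the 6 pathway lists (horizontal axis), 1 row per list. Filled points are genes with an adjusted p under 0.05, open points those without, and bars are medians. Called members lie mainly below 0 and called ERK-responsive factors mainly above 0, led by Bhlhe40 at 2.33 and Jun at 2.11.

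Markers of other cell types were read in the same arrays. Their calls in iPS line 2 against the ES control are set beside the 26.7% of all genes called there, 16.1% higher and 10.6% lower. The summed signal of 9 trophoblast markers was 2971 to 3443 in iPS line 1, 4588 to 5005 in iPS line 2 and 2581 to 3000 in iPS line 3. In the ES control it was 2443 to 2453. Of 7 tested, Krt7, Tfap2c and Ascl2 were higher in iPS line 2 (42.9%), while Elf5, Gata3 and Tpbpa were at or under the floor there. The summed signal of 14 primitive endoderm markers was 5732 to 5739 in iPS line 1, 5769 to 6167 in iPS line 2 and 4857 to 5124 in iPS line 3. In the ES control it was 6748 to 6826. In iPS line 2, 1 was higher, Col4a2, and 1 lower, Sparc, among 12 tested (16.7%). Of 11 tested pluripotency markers, 3 were lower in iPS line 2, Pou5f1, Dppa4 and Utf1, and 0 were higher (27.3% called). The share of all genes that were lower was 10.6%. The median change of these markers was -0.17, beside 0.07 over all genes. Among 8 formative and primed markers 1 was higher in iPS line 2 (12.5%), Lef1 at 2.02 (adjusted p 2.41e-06, limma). Among 6 neural progenitor markers 1 was higher there (16.7%), Map2 at 1.13. In iPS line 1 and in iPS line 3, 2 of the 8 formative and primed markers (25%) were higher. The same 2 lines each had 3 of the 6 neural progenitor markers higher (50%), where 2.34% and 4.17% of all genes were called. The part of these markers, and of the higher beta-actin 3'/5' ratio of the same arrays, in the lower Etv4, Etv5, Dusp6, Spred1 and Spry4 signals was not tested.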

How the data were processed

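RNA was hybridised to 8 Affymetrix 3' arrays. Each deposited value is a probe set's intensity on a linear scale, from MAS5, as the submitters' processing notes name it. The sources used here do not give MAS5's version, its scaling target or detection calls. The platform annotation gave 1 symbol to 34945 probe sets, several to 932 and none to 9160, with 64 controls left out, and 34741 matched a RefSeq gene identifier. Signals stayed as deposited and were tested as log2(signal + 12.4), the 20th percentile of the signals. Probe sets above 37.1, the 40th percentile, in 2 arrays were kept, and the brightest one represented each of 14004 genes. The pseudocount understates changes of dim genes such as Spry4 and Dusp4.

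One group-means model of the 8 arrays was fitted in limma 3.58.1 (R 4.3.3, eBayes with an intensity trend), leaving 4 residual degrees of freedom, or 12.4 after moderation. P-values were two-sided, were adjusted over the 14004 genes after Benjamini and Hochberg, and counted as a call under 0.05. Another fit took 25733 probe sets. The number of arrays limits the precision. The procedure was tested on simulated data. Alternatives covered scaling, pseudocount, filter, probe-set rule, variance model and left-out arrays. Deviations of same-numbered arrays from their line means correlated between -0.0137 and 0.0286, so the numbers do not pair the arrays. Members and lists were chosen with earlier results of these data known. Named genes were the 10 members and up to 4 of each pathway list with the smallest adjusted p against the ES control. Promoter windows are from RefSeq (GRCm38.p6).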

Additional observations from a re-analysis of the deposited data

Results flagged for a closer look

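The results below are differences between iPS lines that passed limma's test of the difference itself, adjusted over all 14004 genes. Between iPS line 2 and iPS line 1, Etv4 differed by -1.44 (adjusted p 3.28e-05). Dusp6 differed by -0.53 (adjusted p 0.000254) in the same pair. Etv5 differed by -0.57 (adjusted p 0.00750), and Spred1 by -0.52 (adjusted p 0.00285).

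Between iPS line 2 and iPS line 3, Etv4 differed by -1.90 (adjusted p 1.73e-06) and Spry4 by -1.39 (adjusted p 0.00558). Etv5 differed by -0.77 (adjusted p 0.000670) in this pair. Spred1 differed by -0.72 (adjusted p 0.000164), and Dusp6 by -0.50 (adjusted p 0.000198). In each of these the arrays of iPS line 2 are the lower ones, and they enter both pairs.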

How the results depend on the processing

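Dusp6 and Etv4 kept their call in iPS line 2 against the ES control under all 19 alternatives. The number of members called in that comparison, 6, fell to 3 when a gene's probe sets were averaged and to 3 with no variance trend, and ranged from 4 to 6 when 1 array was left out. In iPS line 3 the count of 0 became 1 (Spry2) with the pseudocount at the 40th percentile, the filter at the 60th percentile or only the arrays compared, with a range of 0 to 1 over left-out arrays. For the mean of the lines, 2 became 0 with no variance trend, 0 without iPS line 2 and 0 with line means as samples, where limma called 0 of all genes and 280 had an unadjusted p under 0.05, with a range of 1 to 2 over left-out arrays. Against iPS line 3, the count of 5 in iPS line 2 became 3 with the mean of all probe sets. Apart from leaving out 1 array, the settings included fits of only the arrays compared and, for the mean, a fit without iPS line 2. Over these settings, all genes called ranged from 48 to 374 in iPS line 1 and from 2443 to 3869 in iPS line 2. They ranged from 22 to 673 in iPS line 3 and up to 1163 for the mean of the lines, against 17 to 233 between iPS lines 1 and 3. With 1 array left out they ranged from 100 to 354 in iPS line 1, from 182 to 613 in iPS line 3 and from 318 to 992 for the mean, against 52 to 192 between iPS lines 1 and 3. The replicate numbers do not pair the arrays; with replicate number as a block 0, 6, 0 and 2 members were called in iPS lines 1, 2 and 3 and their mean against the ES control, and 5, 6 and 0 in the pairs of iPS lines 2 and 1, 2 and 3, and 1 and 3.

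Directions turned only for changes that were not called. With the mean of all probe sets these were, against the ES control, Fgfr2 (-0.012), Spry2 (0.029) and Spred1 (0.091) in iPS line 1, Etv4 (-0.13) in iPS line 3 and Fgfr2 (-0.018) in the mean of the lines. Without probe sets ending in _x_at or _s_at they were Fgfr1 (-0.24) and Fgfr2 (-0.37) in iPS line 1, Fgfr2 (-0.14) in iPS line 2, Fgfr1 (-0.22) in iPS line 3, and Fgfr1 (-0.085) and Fgfr2 (-0.28) in the mean. Without iPS line 2 the mean gave Spry4 0.047 and Spred1 0.066. Over left-out arrays in iPS line 1, Spry4 ranged from -0.68 to 0.31, Spred1 from -0.094 to 0.022, Dusp4 from -0.30 to 0.16 and Etv5 from -0.29 to 0.070. In iPS line 2, Dusp4 ranged from -0.67 to 0.026, Fgfrl1 from -0.17 to 0.85 and Fgfr4 from -0.084 to 0.66. In iPS line 3, Fgfr1 ranged from -0.019 to 0.21, Fgfr2 from -0.15 to 0.030, Spry4 from -0.042 to 0.59 and Etv5 from -0.084 to 0.28. The causes were not tested. Low signal limits Spry4 and Dusp4 most.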

Other observations

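Sdc4, a syndecan core protein of the heparan sulphate list that was named after its values were seen, moved in opposite directions in different iPS lines. Its signal was 1380 and 1332 in iPS line 1, 2810 and 2558 in iPS line 2, and 1490 and 1364 in iPS line 3, against 1813 and 1999 in the ES control. The log2 changes were -0.49 in iPS line 1, 0.49 in iPS line 2 and -0.41 in iPS line 3, and all 3 passed limma's test against the shared ES arrays.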
